A study of Sus scrofa with 6 samples.

Results

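Phosphofructokinase and the PFKFB enzymes that regulate it were read at the transcript level in longissimus dorsi, a long back muscle, of 6 healthy female Tibetan pigs. The family has 7 genes, found in the deposited table by the current symbol of their Ensembl pig gene ID, among 25322 genes in all. They were taken as a set because PFKFB3 was already known to differ between the altitude groups, so every altitude difference of the 7 genes is given as a description, and a call made in the fit on the whole table is no support for it. The low altitude group was 3 animals raised at about 500 m on the plain of Chengdu, fed daily under experimental conditions, whose forebears had been lowland stock over several generations. At high altitude, the 3 animals ranged freely near 4000 m on the Tibetan plateau. Altitude, place, husbandry, feeding and the history of the line differed together between the groups and cannot be told apart.

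Phosphofructokinase phosphorylates fructose 6-phosphate and is the main control point of glycolysis. Its tetramers are built from a muscle (PFKM), a liver (PFKL) and a platelet (PFKP) subunit, and PFKM is the subunit of skeletal muscle. The PFKFB enzymes are bifunctional: a kinase domain makes fructose bisphosphate of the regulatory kind, the strongest activator of phosphofructokinase, and a phosphatase domain removes it. PFKFB1 is known from liver and muscle, PFKFB2 from heart, PFKFB3 as the inducible form with a high kinase to phosphatase ratio, and PFKFB4 from testis and tumour cells, where hypoxia induces it.

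The values are FPKM, fragments normalized for the length of the gene and for library size. Levels can thus be set side by side between genes, apart from FPKM errors specific to a gene. FPKM totals ran from 506611 to 566907 in the low altitude libraries and from 526368 to 571855 in the high altitude libraries. Relative depth was read from the most frequent ratio, between pairs of libraries, of values under 0.15 FPKM in both. It was 0.947 to 0.988 at low altitude and 0.864 to 1.14 at high altitude, while absolute depth is unknown. Of 10 genes listed as marks of skeletal muscle, 4 had a matching ID (MYL11, PYGM, CASQ1 and DES), and each reached an FPKM of at least 912 in every library. High altitude library 1 was the extreme library in slow fibre and fibroblast genes, and in other lists read below. It had the lowest sums over endothelial and adipocyte genes and the highest over other glycolytic genes, but was not extreme in fast fibre genes. It also had the fewest genes at 1 FPKM or more, 9278, against 9683 to 10100 in the other libraries. Its summed FPKM over 4 slow fibre genes was 10493, against 2751 and 6874 in high altitude libraries 2 and 3 and 3106 to 4707 at low altitude. High altitude library 3 thus also lay above each low altitude library, and library 2 below. The sum over 5 fibroblast genes was 245.6 in high altitude library 1, against 846.3 and 958.5 in the rest of its group and 688.3 to 1067 at low altitude.

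PFKM was by far the most abundant member. Its FPKM was 1189, 975 and 1062 in low altitude animals 1, 2 and 3, against 995, 1099 and 912 in high altitude animals 1, 2 and 3. The groups overlapped, and the level was steady, with a coefficient of variation of 9.51% over the 6 animals. By mean FPKM, PFKM ranked 53 among the 10005 genes that reached 1 FPKM in 3 or more libraries.

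The other catalytic subunits were present at a few FPKM. PFKL, the liver subunit, was at 4.03, 7.02 and 5.73 FPKM at low altitude, against 3.6, 4.72 and 6.34 at high altitude. PFKP, the platelet subunit, was at 3.46, 3.77 and 5.54 at low altitude, against 4.49, 4.49 and 4.33 at high altitude. Both genes overlapped between the groups, and low altitude animal 3 had the highest PFKP value. In bulk muscle, fewer cells of a type and less RNA per cell cannot be told apart.

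PFKM therefore made up nearly all phosphofructokinase transcript. Its share of the summed FPKM of the 3 subunits was 99.37, 98.91 and 98.95% at low altitude, against 99.19, 99.17 and 98.84% at high altitude. The subunit total was 1197, 986.3 and 1073 FPKM at low altitude, against 1003, 1108 and 922.9 at high altitude. Neither the total nor the share separated the groups.

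**Figure D1:**
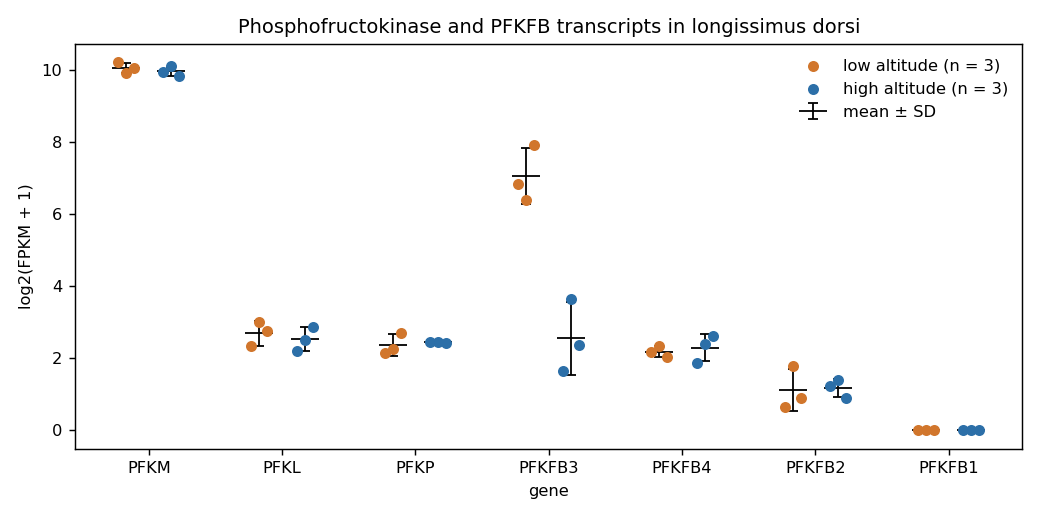
Levels of the 7 genes as log2(FPKM + 1) on the vertical axis, with 1 point per animal and the mean ± SD (n = 3) in black; low altitude is left of high altitude for each gene. PFKM lies near 10 in all 6 animals, PFKFB3 is the only gene whose groups do not overlap, and PFKFB1 is listed at 0 throughout.

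PFKFB3 differed most between animals. Its FPKM was 113, 84.0 and 241 in low altitude animals 1, 2 and 3, against 2.11, 11.6 and 4.18 in high altitude animals 1, 2 and 3. The groups did not overlap: the lowest low altitude value was 7.24 times the highest high altitude value. The mean was 146 ± 83.5 (SD, n = 3) at low altitude and 5.96 ± 4.99 (SD, n = 3) at high altitude, a ratio of 24.5.

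PFKFB3 also varied widely inside each group. The highest value was 2.87 times the lowest at low altitude and 5.49 times the lowest at high altitude. Its within-group SD on the log2(FPKM + 1) scale was 0.907, at the 98.3rd percentile of the 10005 genes, against the 21.3rd percentile for PFKM (SD 0.139). Ranked by FPKM within each library, PFKFB3 was at place 360, 487 and 190 at low altitude, against 7059, 2570 and 5619 at high altitude. In the low altitude animals it thus stood among abundant muscle transcripts, and in high altitude animals 1 and 3 it stood among genes of a few FPKM, with animal 2 between these at 11.6 FPKM.

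The remaining PFKFB genes were low in both groups. PFKFB4 was at 3.55, 4.05 and 3.12 FPKM at low altitude, against 2.68, 4.23 and 5.11 at high altitude. PFKFB2, the heart form, was at 0.582, 2.43 and 0.881 FPKM at low altitude, against 1.37, 1.63 and 0.876 at high altitude. Neither gene separated the groups, and PFKFB2 was highest in low altitude animal 2, the animal with the lowest PFKFB3 of its group.

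PFKFB1, known as a liver and muscle form, was listed at 0 in all 6 libraries and did not pass the filter. Such a 0 need not mean absence, since 107 genes had a 0 in some library while reaching 5 FPKM elsewhere. PFKFB1 was not among the 107, having no library with a value above 0, and no fold is given for it. SLC2A4, the insulin-responsive glucose transporter known from skeletal muscle, was likewise listed at only 0.0911 to 0.298 FPKM at low altitude and 0.0718 to 0.203 at high altitude.

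The make-up of PFKFB transcript differed with the level of PFKFB3. Summed over the 4 genes, FPKM was 117, 90.5 and 245 at low altitude, against 6.17, 17.5 and 10.2 at high altitude. PFKFB3 made up 96.5, 92.8 and 98.4% of it at low altitude, against 34.3, 66.4 and 41.1% at high altitude. Without PFKFB3 the sum was 4.13, 6.47 and 4.0 FPKM at low altitude, against 4.05, 5.87 and 5.98 at high altitude, and the groups overlapped.

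**Figure D2:**
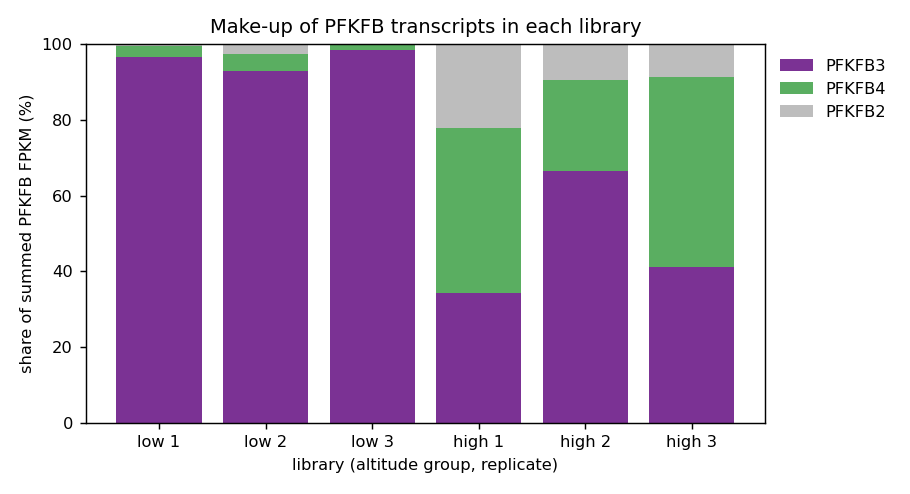
Share of the summed PFKFB FPKM (vertical axis, in %) held by PFKFB3, PFKFB4 and PFKFB2 in each library; PFKFB1, listed at 0, adds nothing. PFKFB3 holds 92.8 to 98.4% in the low altitude libraries and 34.3 to 66.4% in the high altitude libraries.

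Among the PFKFB genes with values above 0, the leading gene was not the same in every animal. PFKFB3 exceeded PFKFB4 by 32.0, 20.8 and 77.2 times in low altitude animals 1, 2 and 3. In the high altitude group the ratio of PFKFB3 to PFKFB4 was 0.788, 2.74 and 0.818, so PFKFB4 was the higher gene in animals 1 and 3. Set against phosphofructokinase, the summed PFKFB FPKM equalled 9.81, 9.18 and 22.8% of the subunit total at low altitude and 0.615, 1.58 and 1.10% at high altitude.

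Isoform levels were compared within muscle by the difference of log2(FPKM + 1) between genes of the same library, with an exact sign-flip permutation test over the 6 libraries for each of the 21 pairs. The smallest two-sided p that 6 libraries allow is 0.0312. It was reached by 16 of the 21 pairs, and so became 0.0410 after Benjamini-Hochberg adjustment over the 21 pairs. The 6 pairs with PFKFB1 were fixed by its listing at 0, and the 5 further pairs with PFKFB3 use the values for which that gene was chosen, so neither set is read as a result. Of the remaining 10 pairs, 8 differed. Over all 21 pairs the count was 16, which includes the 6 pairs with PFKFB1 and the pairs of PFKFB3 with PFKM and with PFKFB2. The exact permutation adjusted p of 0.0410 draws on these pairs too.

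PFKM had the highest FPKM of the family in 6 of 6 libraries. It exceeded PFKL by a mean log2 of 7.40 (SD 0.41, n = 6, exact permutation adjusted p = 0.0410) and PFKFB4 by 7.78 (SD 0.33). PFKL exceeded PFKFB4 in 6 of 6 libraries by a mean log2 of only 0.37 (SD 0.26, n = 6, exact permutation adjusted p = 0.0410). The test reads how steadily a difference recurs over libraries, so an FPKM error specific to a gene would pass it. PFKFB2 was below PFKL, PFKP and PFKFB4 in 6 of 6 libraries. PFKFB4 exceeded PFKFB2 by a mean log2 of 1.09 (SD 0.46, n = 6, exact permutation adjusted p = 0.0410).

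Neighbours in the order of levels were not all separable. PFKL minus PFKP averaged a log2 of 0.21 and ran from −0.26 to 0.75 over the 6 libraries (exact permutation adjusted p = 0.263). PFKP minus PFKFB4 averaged a log2 of 0.17 and ran from −0.20 to 0.67 (exact permutation adjusted p = 0.438). Both signs occurred among the libraries for each of these pairs, so their order is not settled. PFKFB3, described here by counts of libraries, was above PFKL, PFKP and PFKFB4 in 3 of 3 low altitude libraries and in 1 of 3 high altitude libraries. It was below PFKM and above PFKFB2 in 6 of 6.

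The altitude difference of each member was fitted with limma on the whole table, as low minus high altitude on the log2(FPKM + 1) scale, on which changes of low genes come out too small. It was 4.50 for PFKFB3 (SE 0.57). It was 0.10 for PFKM (SE 0.14), 0.16 for PFKL (SE 0.24) and −0.07 for PFKP (SE 0.17). It was −0.11 for PFKFB4 (SE 0.21) and −0.07 for PFKFB2 (SE 0.30). For each of these 5 genes the difference was smaller than its SE, and their groups overlapped, against a median of 0.04 over all tested genes.

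**Figure D3:**
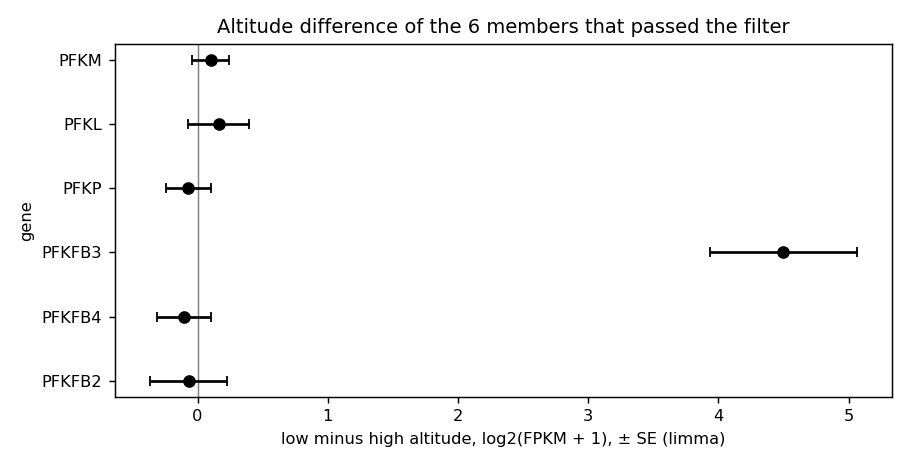
Low minus high altitude difference on the log2(FPKM + 1) scale (horizontal axis) with its SE from limma, for the 6 members that passed the filter; 3 animals per group. PFKFB3 stands at 4.50, and the other 5 members lie between −0.11 and 0.16.

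At a Benjamini-Hochberg adjusted p under 0.05 over all 10005 genes, limma called 16 genes higher at low altitude, 0.16%, and 23 genes in either direction, 0.23%. PFKFB3 was 1 of the 16 and the only called member of the 6 tested. It was also the only member with groups that did not overlap, which held for 16.1% of tested genes in either direction and for 11.3% in the direction of higher at low altitude. Since PFKFB3 was chosen with this contrast known, nothing is read from these counts. The call was also lost in 11 of 17 alternative fits, among them each fit that left out a library other than high altitude library 2. In all 17 the log2 difference lay between 4.04 and 5.05.

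Among 6713 other tested genes with a symbol, 5 had the profile nearest to that of PFKFB3 over the 6 libraries. Nearness was the root mean square difference of log2(FPKM + 1) after each gene was centred on its own mean, with a median of 2.35 over the 6713 genes. The clock repressor PER1 was nearest at 1.13, and the orphan nuclear receptor NR4A2 followed at 1.18. The interferon-induced GTPase MX2 was at 1.25, the muscle regulatory factor MYF6 at 1.35 and TRIM63, a ubiquitin ligase that marks muscle proteins for breakdown, at 1.36. Each of these genes separated the groups in the same direction as PFKFB3, which the measure of nearness favours. In the limma fit PER1 and NR4A2 were called. MX2, MYF6 and TRIM63 were not (limma, Benjamini-Hochberg adjusted p = 0.136, 0.0585 and 0.282). The genes were picked by their profile, so nothing is read from these calls.

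Within the low altitude group some of them also ordered the animals as PFKFB3 did. TRIM63 was at 193, 133 and 406 FPKM in low altitude animals 1, 2 and 3, against 31.6, 61.2 and 84.9 in high altitude animals 1, 2 and 3. MYF6 was at 178, 157 and 335 FPKM at low altitude, against 49.5, 51.5 and 48.8 at high altitude. MX2 was at 8.35, 3.21 and 12.9 FPKM at low altitude, against 0.312, 0.431 and 1.07 at high altitude. In PFKFB3 and these 3 genes low altitude animal 3 was highest and animal 2 lowest, an order found in 11.5% of all tested genes. The measure of nearness favours that order too, so its presence in these genes is a description. Within the high altitude group, where PFKFB3 was highest in animal 2 and lowest in animal 1, 1 of the 5 nearest genes kept that order, NR4A2, against 24.6% of tested genes.

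**Figure D4:**
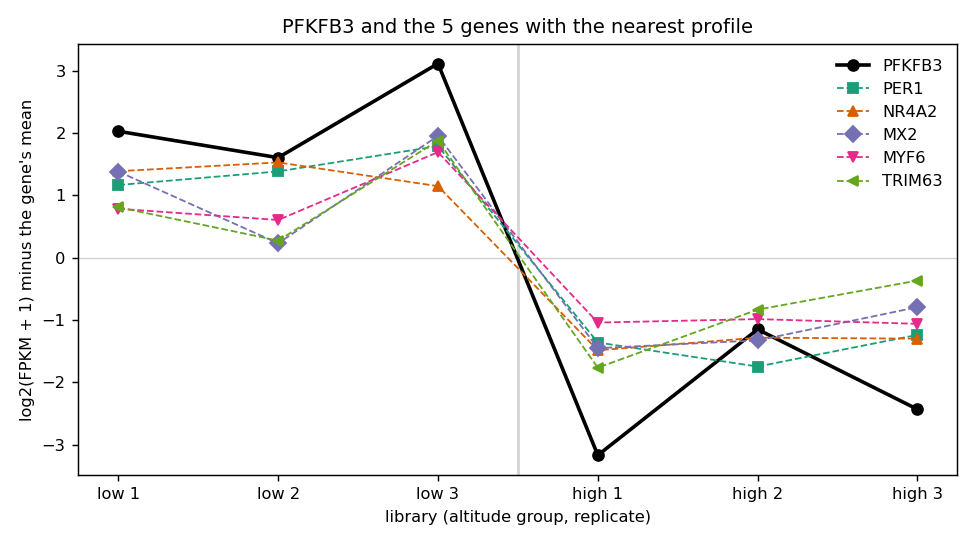
log2(FPKM + 1) of PFKFB3 and its 5 nearest genes in each library, each gene centred on its own mean (vertical axis); low altitude libraries are on the left. PFKFB3 spans a log2 range of 6.28, and each of the 5 genes lies above its own mean in the 3 low altitude libraries and below it in the 3 high altitude libraries.

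Genes around this step of glycolysis were then read by role, in lists chosen by function. Of 83 tested genes in 15 lists 0 were called by limma with Benjamini-Hochberg adjustment over all genes, against 0.23% of all tested genes. At an unadjusted p under 0.05 there were 8 of the 83, or 9.64%, against 942 of the 10005, or 9.42%. No list gene was called in any of the 17 alternative fits. The lowest Benjamini-Hochberg adjusted p from limma was 0.155, for MYC.

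Of the other glycolytic enzymes and transporters, 14 were tested, 13 had estimates below 0 at low altitude and none was called. Their median difference was −0.24, against 0.04 over all tested genes. The genes were read in the same 6 libraries, so their signs are not independent. Summed over the 15 listed genes with an ID, FPKM was 40550, 36743 and 36539 at low altitude. At high altitude the sum was 54090, 44041 and 37568, and the groups overlapped. PGAM1, the brain form of phosphoglycerate mutase, was at 11.4 ± 2.08 FPKM at low altitude and 16.1 ± 1.94 at high altitude (SD, n = 3 each; limma, Benjamini-Hochberg adjusted p = 0.462). Its groups did not overlap. SLC16A3, which exports lactate, was at 46.5 ± 12.6 FPKM at low altitude and 75.4 ± 17 at high altitude (adjusted p from limma = 0.476). The muscle mutase PGAM2 was at 3114 ± 176 FPKM at low altitude and 3642 ± 310 at high altitude, with groups that did not overlap and an adjusted p from limma of 0.624. Hexokinase HK2, which feeds the pathway upstream of phosphofructokinase, was at 5.04, 6.75 and 3.21 FPKM at low altitude, against 14.3, 6.69 and 6.75 at high altitude, and its groups overlapped.

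Phosphatases that oppose this step were read as a pair. FBP2, the muscle fructose bisphosphatase that reverses the phosphofructokinase reaction, was at 294 ± 70.4 FPKM at low altitude and 346 ± 15.7 at high altitude (SD, n = 3 each; limma, Benjamini-Hochberg adjusted p = 0.704). TIGAR, which removes the same activator that PFKFB enzymes make, was at 3.18 ± 1.32 FPKM at low altitude and 3.11 ± 0.385 at high altitude (adjusted p from limma = 0.989). Both genes overlapped between the groups.

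Kinases and phosphatases known to act on PFKFB proteins gave 11 tested genes, 3 with estimates above 0 and 8 below, and a median of −0.06. AKT2, an insulin-signalling kinase, was at 30.9 ± 4.10 FPKM at low altitude and 40.9 ± 9.12 at high altitude (SD, n = 3 each; limma, Benjamini-Hochberg adjusted p = 0.620). PPP2CB, a catalytic subunit of protein phosphatase 2A, was at 35.3 ± 7.98 FPKM at low altitude and 43.6 ± 4.75 at high altitude. PRKAB1, a regulatory subunit of AMP-activated kinase, was at 2.60 ± 0.239 FPKM at low altitude and 2.16 ± 0.284 at high altitude without overlap (adjusted p from limma = 0.703). The kinase subunit PRKAG1 was at 12.2 ± 2.72 FPKM at low altitude and 13.9 ± 0.807 at high altitude.

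Parts of the ubiquitin ligases that are known in human cells to target PFKFB3 protein gave 6 tested genes with a median of 0.03. FZR1, the substrate adaptor of the anaphase-promoting complex, was at 1.67 ± 0.146 FPKM at low altitude and 1.51 ± 0.140 at high altitude. CDC16 of the same complex was at 4.17 ± 0.749 FPKM at low altitude and 3.57 ± 0.271 at high altitude. CUL1 and FBXW11 of the other ligase were at 11.5 ± 0.582 and 7.23 ± 2.15 FPKM at low altitude, against 12.2 ± 0.843 and 6.88 ± 0.913 at high altitude (SD, n = 3 each).

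PFKFB3 and PFKFB4 are known targets of the hypoxia-inducible factors, so these and their other targets were read beside them. HIF1A was at 5.07 ± 0.941 FPKM at low altitude and 4.29 ± 0.817 at high altitude, and EPAS1 at 24.8 ± 2.53 FPKM at low altitude and 20.8 ± 3.69 at high altitude. Their partner ARNT was at 9.17 ± 1.48 FPKM at low altitude and 7.63 ± 1.21 at high altitude (SD, n = 3 each), and each of the 3 genes overlapped between the groups. EGLN3, an oxygen-sensing hydroxylase that is itself a target, was at 1.38, 1.79 and 0.827 FPKM at low altitude, against 3.63, 2.06 and 2.29 at high altitude (limma, Benjamini-Hochberg adjusted p = 0.434). Its groups did not overlap. The 5 tested genes of this list had a median of 0.20.

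Other hypoxia-inducible factor targets gave 10 tested genes, 4 with estimates above 0 and 6 below, and a median of −0.15. MXI1, an antagonist of MYC, was at 9.12 ± 1.03 FPKM at low altitude and 6.12 ± 0.585 at high altitude (SD, n = 3 each; limma, Benjamini-Hochberg adjusted p = 0.343). ANKRD37 was at 1.10 ± 0.233 FPKM at low altitude and 2.25 ± 0.789 at high altitude (adjusted p from limma = 0.408). The groups did not overlap for MXI1 or for ANKRD37. The kinase PDK1 was at 3.43 ± 0.562 FPKM at low altitude and 4.34 ± 0.524 at high altitude, and BNIP3L, a mitophagy receptor, at 7.09 ± 0.743 FPKM at low altitude and 6.16 ± 0.541 at high altitude. Members of this list stood on both sides of 0, and PFKFB4 stood at −0.11. These are transcript levels, and the part of hypoxia-inducible factors in the level of PFKFB3 was not tested.

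Other transcription regulators linked to PFKFB3 gave 6 tested genes with estimates above 0 in all 6, and none was called. Their median was 0.23, against 0.04 over all tested genes. Only MYC had an unadjusted p under 0.05 from limma, and the part of these regulators in the level of PFKFB3 was not tested. MYC was at 4.34, 5.93 and 5.17 FPKM at low altitude, against 2.70, 2.68 and 2.61 at high altitude (limma, Benjamini-Hochberg adjusted p = 0.155), and its groups did not overlap. The glucocorticoid receptor NR3C1 was at 17.4 ± 1.77 FPKM at low altitude and 14.9 ± 1.90 at high altitude (SD, n = 3 each). PPARGC1A, a coactivator of mitochondrial genes, was at 3.26 ± 0.650 FPKM at low altitude and 2.56 ± 0.449 at high altitude, and STAT3 at 17.1 ± 3.95 FPKM at low altitude and 13.9 ± 3.79 at high altitude.

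PFKFB3 is also known from endothelium, fat and leukocytes, so markers of these cells were set beside it, and none of their tested genes was called. Summed over 6 of 9 endothelial markers, FPKM was 55.6 to 72.8 at low altitude and 41.9 to 69.0 at high altitude. Of the 6 tested, 3 had estimates above 0 and 3 below, with a median of 0.08. KDR, a receptor for vascular growth factor, was at 2.87 ± 1.62 FPKM at low altitude and 6.88 ± 1.02 at high altitude (SD, n = 3 each; limma, Benjamini-Hochberg adjusted p = 0.303). The groups of KDR did not overlap. On the other side of 0, the endothelial adhesion protein ESAM was at 3.18 ± 0.196 FPKM at low altitude and 2.69 ± 0.681 at high altitude, and the secreted EGFL7 at 14.0 ± 0.810 FPKM at low altitude and 12.2 ± 2.97 at high altitude. Over 4 of 7 adipocyte markers the sum was 101.0 to 112.5 at low altitude and 71.7 to 156 at high altitude.

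Over 5 of 8 macrophage and neutrophil markers the sum was 6.80 to 12.8 FPKM at low altitude and 6.42 to 7.06 at high altitude, with the highest sum in low altitude library 3, which also had the highest PFKFB3. CSF1R and CSF3R, receptors that define these cells, stayed under an FPKM of 1 in every library and overlapped between the groups. CSF1R was at 0.0378 to 0.495 FPKM at low altitude and 0 to 0.758 at high altitude, and was highest in high altitude library 3. CSF3R was at 0.0979 to 0.791 FPKM at low altitude and 0.023 to 0.239 at high altitude. CD14, a monocyte receptor, was at 3.15, 3.29 and 5.31 FPKM at low altitude, against 2.65, 2.77 and 3.03 at high altitude (limma, Benjamini-Hochberg adjusted p = 0.620). S100A8, a neutrophil protein that did not pass the filter, was at 0.803, 1.24 and 1.97 FPKM at low altitude, against 0.139, 0.366 and 0.510 at high altitude. Neither gene overlapped between the groups, and both were highest in low altitude library 3. CD68, a macrophage protein, overlapped, at 1.98 to 4.37 FPKM at low altitude and 2.52 to 3.51 at high altitude. The sum over 4 fast fibre genes was 41474 to 42349 FPKM at low altitude and 38371 to 46793 at high altitude, and the sum over HBB and ALAS2 of erythroid cells was 57.4 to 116.7 at low altitude and 57.0 to 163 at high altitude. All 4 slow fibre genes had limma estimates below 0, with a median of −0.73, and none was called. The part of these cells and of fibre make-up in the level of PFKFB3 was not tested. Without high altitude library 1, extreme in slow fibre, fibroblast and other lists, the log2 difference of PFKFB3 was 4.04, against 4.50 with it. That was the lowest estimate over the 17 alternative fits. Leaving out 1 library could not test the part of cells or fibres, and high altitude library 3, also high in slow fibre genes, was kept.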

How the data were processed

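Per the labels' protocols, frozen muscle gave total RNA by TRIzol, from which dUTP libraries that keep strand were made. TopHat2 2.0.11 and Cufflinks 2.2.1 are named, per the submitters' processing notes. For the build, nothing is given in the sources used here (likewise annotation and filters), and coordinates are left out. The authors deposited FPKM values of 6 libraries, each from its own animal. FPKM holds no read counts, which bars a count model. A table of ID and symbol pairs named 11804 of 25322 IDs and all 7 members. The 10005 genes that reached 1 FPKM in 3 or more libraries were fitted as log2(FPKM + 1), a pseudocount of 1, with limma 3.58.1 in R 4.3.3 (trend, two-sided, Benjamini-Hochberg adjustment over all tested genes, threshold 0.05). The fit and the pair test were tested on simulated data. Isoform pairs were tested with scipy 1.17.1. The members and lists were chosen with earlier results of these data known. Named were the 7 members, the 5 genes nearest to PFKFB3, and up to 4 genes of each list by unadjusted p, of which those of the cell marker lists are given mainly as sums. Outside this rule, SLC2A4, CSF1R, CSF3R, S100A8 and ALAS2, which did not pass the filter, were also named. Of 138 list genes, 93 had an ID and 83 were tested. Alternatives were pseudocounts of 0.1 and 0.5, filters, scalings, variance models, a replicate block and leaving out each library. Leaving PFKFB1 out of the pairs was added after seeing the data.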

Additional observations from a re-analysis of the deposited data

How the results depend on the processing

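The log2 difference of PFKFB3 ran from 4.04 to 5.05 over the 17 alternatives. Those of the other members that could be fitted ran from −0.40 to 0.35. Each stayed within 1 within-group SD of its reported value, but leaving out 1 of 3 libraries of a group cannot move it that far. The filters, the fit without trend, the robust fit and the replicate block keep the estimate itself. None of these checks tells how stable the difference is. The count of called members, 1 in the reported fit, was 0 with a pseudocount of 0.1, with no filter, with scaling by median of ratios, with values quantile normalized, with a robust fit and with the replicate block. Leaving out 1 library gave counts of 0 to 1. Called list genes stayed at 0 throughout. The same replicate numbers do not pair the animals: deviations of same-numbered libraries correlated at −0.0154, 0.0949 and −0.141. Rescaling to a common total gave a median of 0.10 over all genes. Pseudocounts and scalings keep the order of genes within a library and so could not move the pair test for the 16 pairs with 1 order in all 6 libraries, and they say nothing of its stability. With PFKFB1 left out, 10 of 15 pairs differed, where fewer pairs were tested (exact permutation adjusted p = 0.0469), 2 of them pairs of PFKFB3. With 1 library left out the pair test cannot go below a p of 0.0625, so it was not run. The PFKM share averaged 99.07% (SD 0.204), and its mean ran from 99.01 to 99.12% with 1 library left out. Leaving out 1 of 6 libraries cannot move a mean by 1 SD, so this says nothing of its stability. With 3 animals per group, the SE of the low members, 0.17 to 0.30 on the log2 scale, limits the differences that could be seen, and depth is unknown.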

Other observations

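For 2 other enzymes of glycolysis, picked after their values were seen, the share of the muscle form was set beside that of PFKM. ENO3, the muscle enolase, made up 99.47 to 99.61% of the summed FPKM of ENO3 and ENO1 at low altitude and 99.39 to 99.77% at high altitude. PGAM2, the muscle phosphoglycerate mutase, made up 99.55 to 99.71% of the sum of PGAM2 and PGAM1 at low altitude and 99.52 to 99.59% at high altitude. For both enzymes the groups overlapped, as they did for PFKM.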
